A study of Gallus gallus with 20 samples.

Results

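Normal feather and control scutate scale of White Leghorn chicken embryos were compared across every row of an expression table. The comparison used 4 of the 20 libraries of the series, chosen by their labels. The tested tissue was feather at embryonic day 16, dissected as dorsal skin, with no virus or treatment named in the labels (n = 2 libraries). It was set against scutate scale of the same embryonic day that expressed green fluorescent protein (GFP) from the avian retroviral vector RCAS, delivered to the hind limb and amniotic cavity at embryonic day 3, as virus or as plasmid with electroporation (n = 2 libraries). Appendage type, body site and viral infection therefore differed together and cannot be told apart, and the labels used here do not give the sex or the line of single embryos. The labels do not state whether replicates are separate embryos, so a p-value speaks only of the spread between these libraries, which may be technical. The other 16 libraries, scales given a gene or retinoic acid, were used to estimate the spread and as a frame for single values.

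Feathers and scutate scales, the large overlapping plates of the foot, are both made by the epidermis with an underlying dermis. Their hardness comes from beta-keratins, structural proteins found in birds and reptiles, which are deposited on a scaffold of alpha-keratins, the intermediate filament proteins of all vertebrate epithelia. Alpha-keratin filaments pair a type I (acidic) with a type II (basic) partner. Beta-keratin genes lie in tandem arrays and are grouped as feather, claw, scale, feather-like and keratinocyte keratins.

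Values were RPKM, read counts divided by gene length and by the total of the library, for 16290 rows. Of these, 180 rows carried keratin names that give the chromosome and class, as in Chr25_Claw4 for a claw keratin on chromosome 25, and "Un" marks sequence assigned to no ordered chromosome position. The other 16110 rows carried Ensembl identifiers without gene names and are called non-keratin rows here. The viral GFP was not looked up for that reason, and marker lists for dermis, muscle, blood, pigment cells and other cell types could not be read, so the cell make-up of the samples was not checked beyond the keratins. Read totals were not used here, so depth is unknown and no counting interval is given. Rows at 1 RPKM or more numbered 8723 and 9033 in the feather libraries against 10946 and 10814 in the GFP scale libraries.

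Most of the summed RPKM of the feather libraries lay in keratin rows. RPKM is divided by gene length, so such a share is not a share of reads. Keratin rows held 74.4% and 68.8% of summed RPKM in feather, against 22.3% and 25.3% in GFP scale, and both feather libraries lay above the range of the other 16 libraries (4.39% to 50.8%). The keratin sum was 558634 and 470846 RPKM in feather, against 96921 and 109816 RPKM in GFP scale. Non-keratin rows summed to 192285 and 213283 RPKM in feather, the 2 lowest sums of the 20 libraries, against 337047 and 324816 RPKM in GFP scale. RPKM is relative to the library total, so a larger keratin share lowers every other row. Counts of rows are therefore given as deposited and after dividing each library by its non-keratin sum (called scaled below). Single keratins are given as deposited, and each one named as risen or fallen was called in the same direction after scaling unless stated. Single non-keratin rows have their RPKM as deposited and their test after scaling. That step moved feather by 0.71 log2 units relative to GFP scale. With 2 libraries against 2, the smallest two-sided exact p is 0.333, so calls come from limma across 11863 rows with its spread pooled over all 20 libraries, at an adjusted p below 0.05.

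The 2 tissues filled their keratin pool with different classes. Feather keratins held 98.2% of keratin RPKM in both feather libraries, against 16.5% and 17.1% in GFP scale. Claw keratins held 0.0089% and 0.0083% of the pool in feather, against 36.2% and 38.0% in GFP scale, and scale keratins held 0.057% and 0.045%, against 26.2% and 24.6%. Alpha-keratins held 0.62% and 0.85% in feather, against 14.9% and 14.2% in GFP scale. The ratio of summed beta-keratin to summed alpha-keratin RPKM was 159 and 116 in feather, against 5.69 and 6.03 in GFP scale. Scaling does not alter these shares and ratios, which are taken within a library. In whole tissue, fewer cells of a type and less RNA per cell cannot be told apart.

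**Figure D1:**
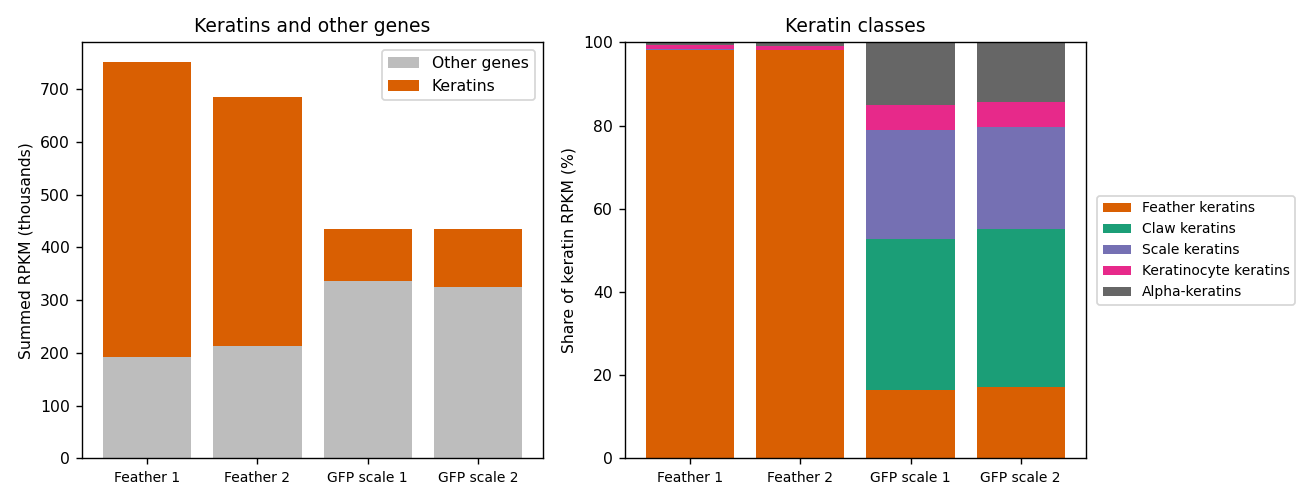
Summed RPKM of keratin and other rows (left, in units of 1000 RPKM) and the share of each keratin class in the keratin sum (right, percent), for 2 feather and 2 GFP scale libraries, 1 bar each. Feather keratins fill 98.2% of the keratin sum in feather, while claw, scale and alpha-keratins fill most of it in GFP scale.

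A few genes carried the bulk of the pool in either tissue. In feather, 8 and 7 rows held 50% of keratin RPKM, against 10 and 10 rows in GFP scale, and 34 and 29 rows held 90%, against 39 and 42. The most abundant keratin of feather was Chr25_FK11, with 10.1% and 11% of the feather keratin pool. In GFP scale it was Chr25_scale15, with 9.48% and 8.93% of that pool.

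Feather keratins (FK), the main proteins of barbs and barbules, rose as a class. The table lists 97, of which 84 passed the filter of 1 RPKM in 2 of the 20 libraries. As deposited, 72 of the 84 rose and 0 fell (median log2 difference 4.55), where 9.68% of all tested rows were called higher (median -0.93 over all rows). After scaling, 73 rose and 0 fell (median 5.26), where 19.3% of all rows were called higher (median -0.44). All 72 were also called higher under median-ratio scaling, where 78 rose. Both scalings raise feather relative to GFP scale, so a row higher as deposited could hardly lose its call under them. Over all tested rows and both directions, 88.3% were called as deposited, 79.3% after scaling and 72.4% under median-ratio scaling. Of the 72 calls, 11 were lost without feather replicate 1, 4 without GFP scale replicate 1, 1 without GFP scale replicate 2 and 0 without feather replicate 2. After scaling, 6 of the 73 were lost without feather replicate 1.

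The 3 most abundant feather keratins lie on chromosomes 25 and 1. Chr25_FK11 stood at 56652 and 51743 RPKM in feather against 2488 and 2280 RPKM in GFP scale (log2 difference 4.51, SE 0.45, adjusted p = 5.12e-08). Chr1_FK1 stood at 55380 and 45411 RPKM in feather against 1621 and 1390 RPKM in GFP scale (log2 difference 5.06, SE 0.43, adjusted p = 7.67e-09). Both genes were also above 1000 RPKM in each control scale library. Chr25_FK7 stood at 41136 and 33318 RPKM in feather but at only 123 and 127 RPKM in GFP scale (log2 difference 8.20, SE 0.58, adjusted p = 9.2e-10).

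All 13 feather keratins named for chromosome 25 rose, where 9.68% of all tested rows were called higher as deposited and 19.3% after scaling. Together they gave 249217 and 209358 RPKM in feather, against 6329 and 5760 RPKM in GFP scale, 37.9-fold higher as deposited and 62.4-fold higher after scaling. The largest rises of this group were Chr25_FK9, at 22875 and 20693 RPKM in feather against 35.8 and 18.2 RPKM in GFP scale (log2 difference 9.68, SE 0.57, adjusted p = 1.03e-10), and Chr25_FK8, at 19606 and 15884 RPKM against 27.8 and 21.5 RPKM (log2 difference 9.44, SE 0.47, adjusted p = 1.59e-11). A lack of overlap between feather and GFP scale libraries was a condition for naming both genes, so it is no result. The single row named for unplaced chromosome 25 sequence, ChrUn25_FK1, differed least among these, at 12486 and 7134 RPKM in feather against 947 and 1035 RPKM in GFP scale (log2 difference 3.25, SE 0.52, adjusted p = 1.79e-05).

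Feather keratins named for chromosome 10 were close to silent in the control scale. The 3 rows placed on chromosome 10 summed to 4177 and 5555 RPKM in feather against 2.1 and 2.1 RPKM in GFP scale. The 4 rows of unplaced chromosome 10 sequence summed to 27447 and 34746 RPKM in feather against 24.6 and 25.6 RPKM in GFP scale. All 7 rose. Chr10_FK3 stood at 2941 and 3989 RPKM in feather against 2.1 and 1.9 RPKM in GFP scale (log2 difference 10.16, SE 0.34, adjusted p = 1.55e-13). Chr10_FK2 stood at 1197 and 1514 RPKM in feather against 0.0 and 0.1 RPKM in GFP scale (log2 difference 10.33, SE 0.35, adjusted p = 1.84e-13). The sums were over 1000 times apart for both chromosome 10 groups, at 2317-fold for the placed and 1239-fold for the unplaced rows as deposited, and 3762-fold and 2013-fold after scaling. ChrUn10_FK4, at 2622 and 3567 RPKM in feather against 0.8 and 1.4 RPKM in GFP scale, and ChrUn10_FK1, at 10641 and 13011 RPKM against 7.5 and 7.9 RPKM, had log2 differences of 10.52 (SE 0.54, adjusted p = 1.92e-11) and 10.40 (SE 0.49, adjusted p = 7.94e-12).

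Chromosome 27 carries the largest array, 47 rows, and not all of them were called. As deposited, 33 of its 44 tested rows rose, 0 fell and 11 had no call. After scaling, 34 rose, 0 fell and 10 had no call. Over all tested rows, 9.68% were called higher as deposited and 19.3% after scaling. The near-identical rows Chr27_FK45 and Chr27_FK46 stood at 31242 and 30637 RPKM (FK45) and at 31244 and 30651 RPKM (FK46) in feather, against 5.8 and 8.4 RPKM in GFP scale for each. Their log2 differences were 11.92 for both (SE 0.71 and 0.68, adjusted p = 1.11e-10 and 6.81e-11). These 2 rows are 1 of 4 pairs of feather keratins whose values lie within 2% of each other, so how reads were assigned within each pair is uncertain. All 15 tested rows of unplaced chromosome 27 sequence rose, led by ChrUn27_FK6, at 24501 and 24370 RPKM in feather against 0.8 and 0.8 RPKM in GFP scale (log2 difference 13.73, SE 1.34, adjusted p = 4.51e-08). ChrUn27_FK5 stood at 2574 and 2060 RPKM in feather and was listed at 0 in both GFP scale libraries (adjusted p = 4.28e-09). It forms another of those pairs, with ChrUn27_FK12.

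**Figure D2:**
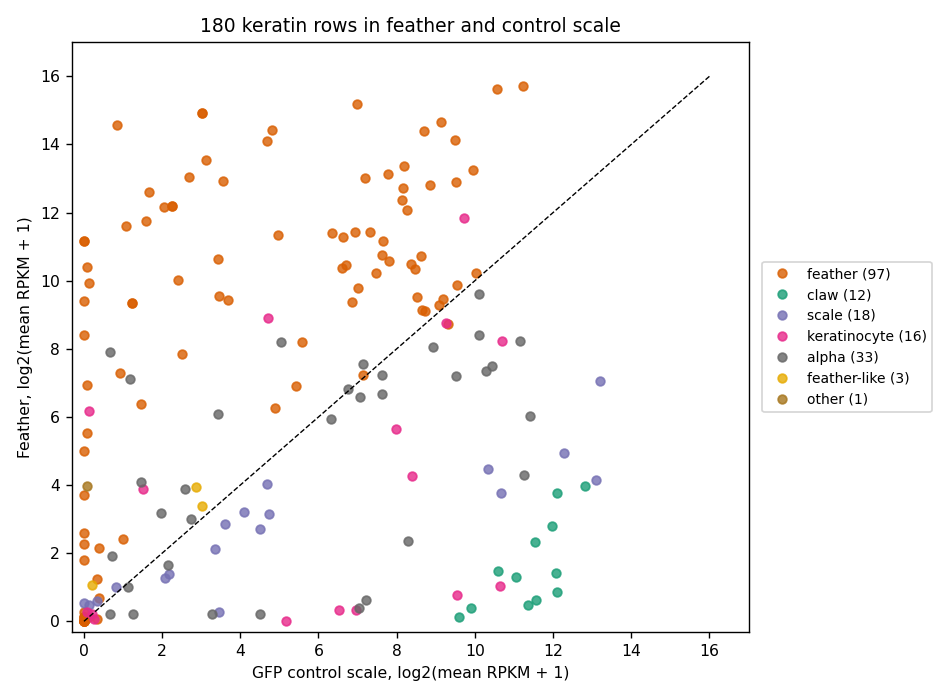
Mean level of each of the 180 keratin rows in feather (vertical) against GFP control scale (horizontal), both as log2(mean RPKM + 1) over 2 libraries, with colour for the class and a dashed line of equal level. Feather keratins lie along the left and upper part, claw keratins and 5 scale keratins at the lower right, and alpha-keratins on both sides of the line.

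The control scale was not empty of feather keratins. Of the 71 that averaged at least 100 RPKM in feather, 36 also averaged at least 100 RPKM in GFP scale, 21 of them on chromosome 27 and 10 on chromosome 25. Of these 36, 27 rose as deposited and 28 after scaling, with deposited log2 differences between -0.70 and 8.20. Over all tested rows, 9.68% and 19.3% were called higher in turn. The 9 with less than 1 RPKM and the 15 with 1 to 10 RPKM in GFP scale all rose, as did the 11 with 10 to 100 RPKM. Rows picked at 100 RPKM or more in feather and below 100 RPKM in GFP scale are higher in feather by that choice. Their direction is therefore no result. Feather keratins thus ran from rows whose levels overlapped between tissues to rows averaging below 1 RPKM in GFP scale.

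The feather keratins without a call were nearly all on chromosome 27. Of these 12 as deposited, 11 were Chr27 rows and the other was Chr7_FK1; Chr7_FK1 and Chr27_FK10 stayed below 1 RPKM in all 4 libraries. Chr27_FK13 stood at 1588 and 782 RPKM in feather against 869 and 1204 RPKM in GFP scale (log2 difference 0.12, SE 0.37, adjusted p = 0.758). Chr27_FK9 stood at 594 and 248 RPKM in feather against 548 and 715 RPKM in GFP scale (log2 difference -0.70, SE 0.44, adjusted p = 0.144). In both cases the ranges of the tissues overlapped as deposited. Chr27_FK13 had no call after scaling (log2 difference 0.83, adjusted p = 0.0568) but was called higher under median-ratio scaling (1.39, adjusted p = 0.00406). Chr27_FK9 had no call after scaling (log2 difference 0.0045, adjusted p = 0.993) or under median-ratio scaling (0.56, adjusted p = 0.313). Chr27_FK14, at 1000.2 and 464 RPKM in feather against 255 and 482 RPKM in GFP scale, missed the threshold as deposited (adjusted p = 0.127) and passed it after scaling (log2 difference 1.66, adjusted p = 0.0209). Without feather replicate 1 its scaled adjusted p was 0.211, and without GFP scale replicate 1 it was 0.161. A missed threshold does not show equal levels, because the feather replicates differed by more than 2-fold for each of these 3 genes.

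The direction of replicate differences among feather keratins varied with the chromosome in the name. The keratin sum as deposited was 558634 and 470846 RPKM in feather, and 96921 and 109816 RPKM in GFP scale. Among rows averaging at least 100 RPKM in the tissue, replicate 2 was lower than replicate 1 in feather for 38 of 39 chromosome 27 rows (median ratio 0.577). The same held for 9 of 11 unplaced chromosome 27 rows (median ratio 0.791) and for 13 of 13 chromosome 25 rows (median ratio 0.82). The chromosome 25 rows held 44.6% and 44.5% of the feather keratin sum. They make up much of that sum, so that both were lower in replicate 2 is no separate result. The share of chromosome 27 rows was 28.0% and 26.0%. The chromosome 10 rows ran the other way, with replicate 2 higher for 2 of 2 placed rows (median ratio 1.31) and 4 of 4 unplaced rows (median ratio 1.29). In GFP scale, replicate 2 was higher for 21 of 21 chromosome 27 rows (median ratio 1.48) and 3 of 3 unplaced ones (median ratio 1.78). There 7 of 10 chromosome 25 rows were lower (median ratio 0.936). Other classes also leaned 1 way. In GFP scale, replicate 2 was higher for 12 of 12 claw, 5 of 5 scale, 6 of 8 keratinocyte and 11 of 17 alpha-keratins. In feather it was higher for 10 of 14 alpha-keratins (median ratio 1.35) and 1 of 4 keratinocyte keratins. Such directions are thus not particular to feather keratins, and each comes from 1 pair of libraries. The widest gaps were Chr27_FK1, at 456 and 3.3 RPKM in feather against 1.7 and 7.6 RPKM in GFP scale, and ChrUn27_FK16, at 55.3 and 620 RPKM in feather and listed at 0 in both GFP scale libraries. The call of Chr27_FK1 (log2 difference 3.20, SE 1.27, adjusted p = 0.0264) rested on feather replicate 1, without which the log2 difference was -0.16 (adjusted p = 0.815); it was also lost without GFP scale replicate 1 (log2 difference 2.37, adjusted p = 0.164).

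**Figure D3:**
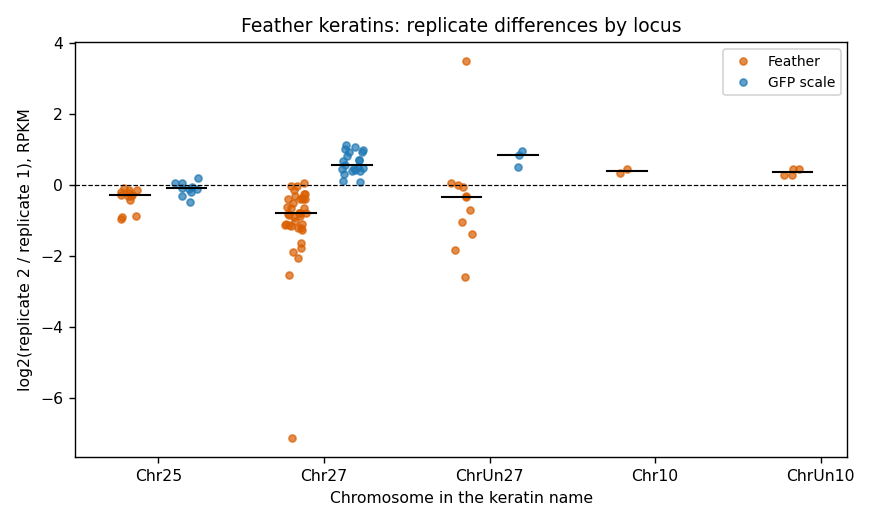
Log2 ratio of replicate 2 to replicate 1 for feather keratins that averaged at least 100 RPKM in the tissue, by the chromosome in the name; points are rows, feather left of GFP scale, and black bars are medians. No chromosome 10 row reached 100 RPKM in GFP scale. Chromosome 27 rows lie below 0 in feather (38 of 39) and above 0 in GFP scale (21 of 21).

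Claw keratins, named for the hard cover of the claw, fell without exception. All 12 were called lower as deposited, after scaling and under median-ratio scaling, where 78.6%, 60.0% and 37.1% of all rows were called lower, and the median log2 difference was -9.49 as deposited. Their sum was 49.9 and 38.9 RPKM in feather, against 35110 and 41691 RPKM in GFP scale, 865-fold lower as deposited and 526-fold lower after scaling. Chr25_Claw4 stood at 0.9 and 0.7 RPKM in feather against 3990 and 4855 RPKM in GFP scale (log2 difference -11.26, SE 0.37, adjusted p = 1.2e-13). Chr25_Claw5 stood at 0.7 and 0.4 RPKM in feather against 2796 and 3222 RPKM in GFP scale (log2 difference -10.93, SE 0.33, adjusted p = 5.53e-14). Chr25_Claw9, the most abundant claw keratin of the control, still reached 16.0 and 13.3 RPKM in feather against 6526 and 7966 RPKM in GFP scale (log2 difference -8.85, SE 0.29, adjusted p = 1.21e-13). For 11 of the 12, both feather libraries lay below every other library of the series, as deposited and after scaling. After scaling the same held for 48.9% of the 11700 tested non-keratin rows, so this position was common in feather.

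The scale keratins divided into 5 abundant and 13 scarce rows, a split made after their values were seen. The 5 were picked as abundant in GFP scale, which favours a fall of their sum in feather. Chr25_scale14 to Chr25_scale18 summed to 249 and 174 RPKM in feather, against 25272 and 26904 RPKM in GFP scale, 123-fold lower as deposited and 74.7-fold lower after scaling, and all 5 fell under the 3 scalings. Chr25_scale15 stood at 149 and 114 RPKM in feather against 9190 and 9802 RPKM in GFP scale (log2 difference -6.18, SE 0.35, adjusted p = 5.72e-11). Chr25_scale14 stood at 19.4 and 13.8 RPKM in feather against 8680 and 8786 RPKM in GFP scale (log2 difference -8.97, SE 0.37, adjusted p = 1.47e-12), and Chr25_scale16 at 36.7 and 22.9 RPKM against 4693 and 5183 RPKM (log2 difference -7.36, SE 0.38, adjusted p = 2.11e-11). The other 13 rows summed to only 67.8 and 36.9 RPKM in feather against 108 and 145 RPKM in GFP scale. Over the 16 tested scale keratins, 0 rose and 11 fell as deposited, 0 rose and 8 fell after scaling, and 1 rose and 6 fell under median-ratio scaling. Of all tested rows, 78.6%, 60.0% and 37.1% were called lower under these 3 in turn, so the counts are not read as a fall of the whole class. The sixth row lower under all 3 was Chr25_scale11, at 0.4 and 0.0 RPKM in feather against 10.9 and 9.0 RPKM in GFP scale (adjusted p = 1.18e-06).

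Keratinocyte keratins (Ktn), beta-keratins named for the main cell of the epidermis, moved in both directions. They summed to 5966 and 4122 RPKM in feather against 5978 and 6653 RPKM in GFP scale, so the higher feather library lay just below the lower GFP scale library. After scaling the direction of the sum turned and the groups overlapped, at 9396 and 5853 in feather against 5371 and 6202 in GFP scale. Of 14 tested, 4 rose and 9 fell as deposited, 4 rose and 8 fell after scaling, and 5 rose and 8 fell under median-ratio scaling. In the same order, 9.68%, 19.3% and 35.3% of all tested rows were called higher, and 78.6%, 60.0% and 37.1% lower. Chr25_Ktn8 stood at 62.7 and 81.1 RPKM in feather against 0.1 and 0.1 RPKM in GFP scale (log2 difference 6.04, SE 0.36, adjusted p = 1.23e-10). Chr25_Ktn1 stood at 442 and 519 RPKM in feather against 20.2 and 29.8 RPKM in GFP scale (log2 difference 4.23, SE 0.34, adjusted p = 3.98e-09). The 2 largest falls were larger than these rises. Chr25_Ktn15 stood at 1.2 and 0.9 RPKM in feather against 1430 and 1789 RPKM in GFP scale (log2 difference -9.61, SE 0.31, adjusted p = 1.03e-13), and Chr25_Ktn13 at 0.3 and 1.1 RPKM against 722 and 771 RPKM (log2 difference -8.82, SE 0.34, adjusted p = 9.14e-13). The most abundant member in feather was Chr25_Ktn11, at 4546 and 2811 RPKM in feather against 760 and 922 RPKM in GFP scale (log2 difference 2.09, SE 0.38, adjusted p = 6.2e-05). Chr25_Ktn16, at 518 and 348 RPKM in feather against 570.4 and 660 RPKM in GFP scale, changed sign with the scaling. Its log2 difference was -0.53 as deposited (adjusted p = 0.0218), 0.18 after scaling (adjusted p = 0.493) and 0.73 under median-ratio scaling (adjusted p = 0.0138). The deposited call was lost without feather replicate 2 (adjusted p = 0.306) and without GFP scale replicate 2 (0.126).

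The 3 feather-like keratins (FL) stayed scarce in both tissues. They summed to 29.1 and 20.3 RPKM in feather against 16.3 and 10.8 RPKM in GFP scale. As deposited only Chr25_FL2 rose, at 17.7 and 10.8 RPKM in feather against 7.4 and 5.3 RPKM in GFP scale (log2 difference 1.03, SE 0.42, adjusted p = 0.0306), and after scaling all 3 did. The scaled call of Chr25_FL1 (log2 difference 1.04, adjusted p = 0.015) was lost without feather replicate 1 (0.0857) and without GFP scale replicate 2 (0.131). That of Chr25_FL3 (log2 difference 1.17, adjusted p = 0.0201) was lost without feather replicate 1 (0.217), GFP scale replicate 1 (0.0748) or GFP scale replicate 2 (0.0507). The deposited call of Chr25_FL2 was lost without feather replicate 1 (adjusted p = 0.226), without GFP scale replicate 2 (0.151), with no filter (0.0543) and with a robust prior (0.0702). Chr6_BKJ, a keratin-named row outside these classes, stood at 13.2 and 16.5 RPKM in feather against 0.0 and 0.1 RPKM in GFP scale (log2 difference 3.91, SE 0.15, adjusted p = 5.48e-13).

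Alpha-keratins moved in both directions, and how many counted as higher depended on the scaling. All 33 were tested. As deposited, 9 rose and 17 fell (median log2 difference -0.48); after scaling 12 rose and 13 fell (median -0.04); under median-ratio scaling 16 rose and 13 fell (median 0.51). The shares of all rows called higher were 9.68%, 19.3% and 35.3% in the same order, and those called lower 78.6%, 60.0% and 37.1%. Across the 3 scalings, 9 were higher in all and 13 were lower in all. The 9 are those higher as deposited, which the other scalings could hardly undo because they raise feather. The sum over the class was 3489 and 4008 RPKM in feather, against 14486 and 15627 RPKM in GFP scale, 4.02-fold lower as deposited and 2.47-fold lower after scaling. The summed type I to type II ratio was 1.64 and 1.38 in feather, against 0.985 and 0.969 in GFP scale. Roles below are those of the human genes of the same symbol, and the names in the table were not checked by sequence.

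The keratins of the suprabasal epidermis, KRT1 and its partner KRT10, were far lower in feather than in GFP scale. KRT10 stood at 21.9 and 15.6 RPKM in feather against 2670.4 and 2217 RPKM in GFP scale (log2 difference -6.96, SE 0.22, adjusted p = 9.34e-14). KRT1 stood at 0.6 and 0.5 RPKM in feather against 163 and 133 RPKM in GFP scale (log2 difference -6.58, SE 0.27, adjusted p = 1.44e-12). KRT9, in human a keratin of palm and sole skin, followed them, at 4.5 and 3.7 RPKM in feather against 297 and 323 RPKM in GFP scale (log2 difference -5.94, SE 0.18, adjusted p = 4.73e-14). KRT4, in human a keratin of moist internal epithelia, stood at 0.3 RPKM in both feather libraries against 130.9 and 130.0 RPKM in GFP scale (log2 difference -6.66, SE 0.14, adjusted p = 9.94e-16).

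The basal-layer keratins KRT5, KRT14 and KRT15 fell less. KRT5 stood at 127 and 195 RPKM in feather against 1182 and 1325 RPKM in GFP scale (log2 difference -2.98, SE 0.17, adjusted p = 6.17e-11). KRT14, the type I partner of KRT5, stood at 273 and 401 RPKM in feather against 1022 and 1188 RPKM in GFP scale (log2 difference -1.73, SE 0.16, adjusted p = 2.8e-08). KRT15 stood at 124 and 166 RPKM in feather against 774 and 682 RPKM in GFP scale (log2 difference -2.33, SE 0.17, adjusted p = 1.03e-09). All 3 were also called lower after scaling, with log2 differences of -2.28 for KRT5, -1.03 for KRT14 and -1.63 for KRT15. The basal group thus kept a larger part of its control level than the suprabasal pair, whose sum was 22.5 and 16.1 RPKM in feather against 2834 and 2350 RPKM in GFP scale; the difference between the 2 groups was not tested.

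The keratins that in human mark stressed or proliferating epidermis and hair-follicle sheath (KRT6, KRT16 and KRT17) parted by gene. KRT6A stood at 56.1 and 71.4 RPKM in feather against 2709.7 and 2769 RPKM in GFP scale (log2 difference -5.41, SE 0.17, adjusted p = 8.44e-14), and KRT6C at 255 and 347 RPKM against 2262 and 2292 RPKM (log2 difference -2.93, SE 0.16, adjusted p = 3.65e-11). KRT6A and KRT6C were the 2 type II keratins with the highest levels in the control scale. KRT16B went the other way, at 114 and 163 RPKM in feather against 1.1 and 1.4 RPKM in GFP scale (log2 difference 5.94, SE 0.46, adjusted p = 2.45e-09), as did KRT16A, at 52.0 and 81.2 RPKM against 11 and 8.7 RPKM (log2 difference 2.61, SE 0.39, adjusted p = 7.54e-06). KRT17 and KRT6B had no call as deposited (log2 differences -0.42 and -0.44, adjusted p = 0.0567 and 0.138) or after scaling (0.28 and 0.26, adjusted p = 0.171 and 0.377), and both were called higher under median-ratio scaling.

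The rows named for KRT75, in human a keratin of the hair follicle companion layer and in chicken a keratin of the feather rachis, differed from each other. KRT75B stood at 177 and 300 RPKM in feather against 0.5 and 0.7 RPKM in GFP scale (log2 difference 7.18, SE 0.31, adjusted p = 3.21e-12), the largest rise of any alpha-keratin. KRT75A stood at 96.2 and 104 RPKM in feather against 198 and 194 RPKM in GFP scale (log2 difference -0.96, SE 0.18, adjusted p = 9.8e-05), and it had no call after scaling (log2 difference -0.26, adjusted p = 0.212). The rows named for KRT13, in human the partner of KRT4, also parted. KRT13C stood at 296 and 288 RPKM in feather against 42.2 and 21.4 RPKM in GFP scale (log2 difference 3.23, SE 0.27, adjusted p = 6.69e-09), and KRT13B at 184 and 176 RPKM against 1114 and 1674 RPKM (log2 difference -2.91, SE 0.23, adjusted p = 2.79e-09). KRT13A, the most abundant alpha-keratin of feather at 867 and 698 RPKM, stood at 951 and 1242 RPKM in GFP scale and had no call as deposited (log2 difference -0.48, adjusted p = 0.128) or after scaling (0.22, adjusted p = 0.503). Under median-ratio scaling KRT13A was called higher (0.78, adjusted p = 0.0331). Rows sharing a KRT number may share reads, and how such reads were assigned is not given in the sources used here.

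Of 5 keratins of simple epithelia, 3 rose and 2 had no call, both as deposited and after scaling. Over all tested rows, 9.68% and 19.3% were called higher in turn. Without a call were KRT19 and KRT7, with deposited log2 differences of -0.54 and -0.14 (adjusted p = 0.194 and 0.287). KRT18 stood at 10.9 and 21.3 RPKM in feather against 1.9 and 1.6 RPKM in GFP scale (log2 difference 2.57, SE 0.22, adjusted p = 1.1e-08). KRT8, its type II partner, stood at 155 and 218 RPKM in feather against 137 and 144 RPKM in GFP scale (log2 difference 0.38, SE 0.17, adjusted p = 0.0486). The deposited call of KRT8 was lost without feather replicate 2 (adjusted p = 0.495), without GFP scale replicate 1 (0.152), without GFP scale replicate 2 (0.0854), with no filter (0.0681), with the 2 groups fitted alone (0.154) and with a replicate block (0.0502). After scaling KRT8 rose by 1.09 (adjusted p = 1.75e-05). In 5 alpha-keratins the sign differed between deposited and scaled values. Of these 5 only KRT80 was called in both, lower as deposited (log2 difference -0.38, adjusted p = 0.00182) and higher after scaling (0.31, adjusted p = 0.00464), at 54.1 and 67.5 RPKM in feather against 76.2 and 82.3 RPKM in GFP scale. Its scaled call was lost without feather replicate 2 (adjusted p = 0.0572) and without GFP scale replicate 1 (0.0638).

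**Figure D4:**
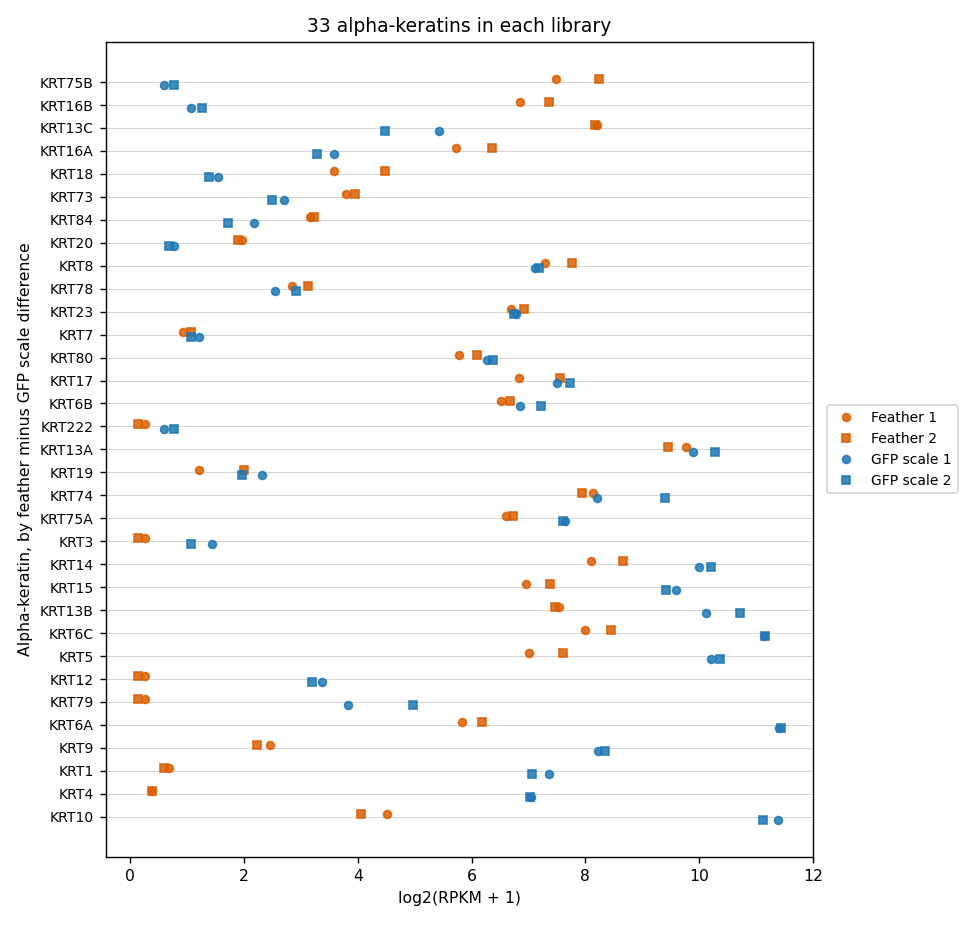
Level of each of the 33 alpha-keratins as log2(RPKM + 1) in the 2 feather libraries (orange) and 2 GFP scale libraries (blue), ordered by the difference from largest rise (top) to largest fall (bottom); circles are replicate 1 and squares replicate 2. KRT75B and KRT16B are at the top and KRT10, KRT4 and KRT1 at the bottom, with no overlap between tissues.

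Whether non-keratin rows were mostly lower in feather depended on the scaling. Of the 11700 tested, 1061 were called higher and 9279 lower as deposited (median log2 difference -0.94). After dividing by the non-keratin sum, 2195 were called higher and 7081 lower (median -0.45), and under median-ratio scaling 4085 were called higher and 4357 lower (median -0.03). The share of higher rows among all calls was 10.3%, 23.7% and 48.4% in that order. Median-ratio scaling gives every library the same median ratio over the rows it uses. The last share and the median of -0.03 therefore largely follow from the method. Dividing by the sum without its most abundant 1% of rows, 162 rows, moved feather by 0.76 log2 units against the 0.71 of the whole sum, while the median ratio moved it by 1.27. The direction of a non-keratin row is therefore given here relative to a stated scaling. Both scalings raise feather relative to GFP scale, so a row higher as deposited could hardly fail to be higher under them. All 1061 such rows were, and 4356 rows were lower under all 3. Between them, 303 rows were lower as deposited and higher after dividing by the sum, and 332 were lower after that step and higher under median-ratio scaling.

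**Figure D5:**
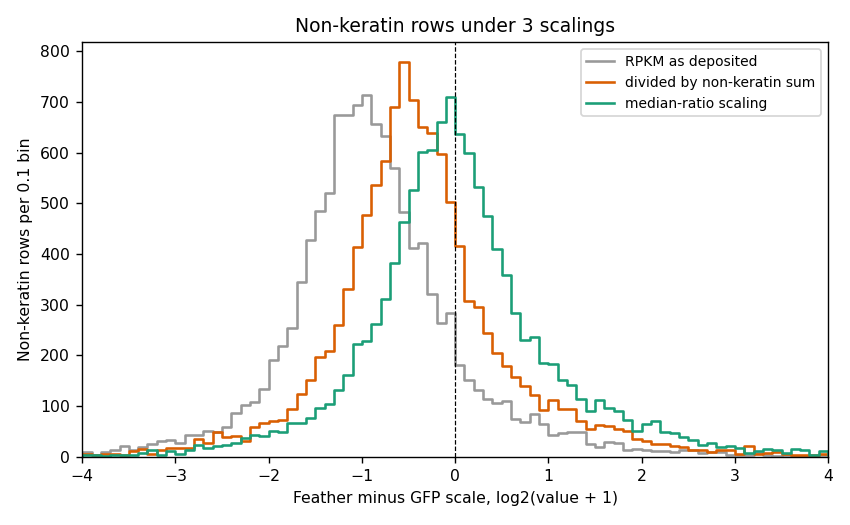
Number of non-keratin rows (per 0.1 log2 unit) by their feather minus GFP scale difference in log2(value + 1), as deposited, divided by the non-keratin sum and under median-ratio scaling. The medians are -0.94, -0.45 and -0.03 in that order. Low rows move less between scalings than high ones, because 1 is added before the log. Rows beyond 4 units either way are outside the axis.

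The non-keratin sum was more concentrated in feather. The 10 most abundant non-keratin rows held 27.2% and 22.7% of the non-keratin sum in feather, against 12.8% and 12.1% in GFP scale. The top row alone, which has no gene name here, stood at 27552 and 20404 RPKM in feather (14.3% and 9.57% of the non-keratin sum) against 1715 and 2540 RPKM in GFP scale, with 40.6 to 5894 RPKM in the other 16 libraries. Such rows enlarge the divisor in feather and lower all others after scaling. With the most abundant 1% of rows left out of the sum, the median non-keratin difference was -0.41, against -0.45 with the whole sum. Non-keratin rows called higher then numbered 2340 and those called lower 6914, against 2195 and 7081.

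Differences between tissues were larger than those between replicates. The median absolute log2 difference of scaled non-keratin values was 0.15 between feather replicates and 0.11 between GFP scale replicates, against 0.64 between the tissue means. A difference above 1 was seen in 28 rows between feather replicates and in 54 between GFP scale replicates, against 3385 between tissues. Both tissue values include the common offset left by this scaling (median -0.45), and neither was made under median-ratio scaling. Among called rows, 959 rose and 2425 fell by more than 1 after scaling, 274 rose and 505 fell by more than 2, and 30 rose and 46 fell by more than 4. Under median-ratio scaling, which sets the middle of the distribution by design, the balance turned. There 1647 were higher and 1355 lower by more than 1, 550 higher and 336 lower by more than 2, and 52 higher and 39 lower by more than 4. By level, the share called higher was 13.8% of 4735 rows under 5 scaled RPKM, 20.5% of 4865 rows from 5 to 20, 26.6% of 1764 rows from 20 to 100 and 21.7% of 336 rows above 100. The median difference stayed between -0.52 and -0.35 in these 4 levels.

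After dividing by the non-keratin sum, feather also stood apart from the series as a whole. In scaled values, 1211 of the 11700 non-keratin rows (10.4%) were higher in both feather libraries than in the 18 other libraries, and 5726 (48.9%) were lower. For both GFP scale libraries the same counts were 110 (0.94%) and 232 (1.98%). By at least 2-fold, 269 rows were above and 1503 below all others in feather, against 0 and 2 in GFP scale. These counts depend on the scaling. The median non-keratin difference from GFP scale was -0.45 under the scaling used and -0.03 under median-ratio scaling, for which such counts were not made.

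Rows on in one tissue and off in the other were few. In 10 of the 16110 non-keratin rows, both feather libraries had at least 5 RPKM and both GFP scale libraries at most 0.2 RPKM as deposited. The reverse held for 67 rows. Of the 10, 0 were also at most 0.2 RPKM in all 16 other libraries, and 37 of the 67 reached 1 RPKM in each of those 16. The larger keratin share lowers feather values as deposited, so these counts can lean toward rows off in feather. No scaled count was made. ENSGALG00000026523 stood at 490.7 and 458 RPKM in feather against 0.1 and 0.0 RPKM in GFP scale (scaled log2 difference 9.41, SE 0.76, adjusted p = 1.47e-08). It was also high, at 466 to 863 RPKM, in the 3 scale libraries with the transcription factor Sox18. It reached 212 and 93.3 RPKM in the Grem1 scales and 103 and 89 RPKM in the retinoic acid scales. Levels were lower in the beta-catenin (31 and 56.5 RPKM), Spry2 (20.1 and 53.6 RPKM) and Sox2 scales (11 and 10.2 RPKM). The Zic1-deltaC scales had 0, 0 and 8.2 RPKM, so its near absence was not shared by most scale groups. ENSGALG00000010430 stood at 377 and 285 RPKM in feather against 3.3 and 3.6 RPKM in GFP scale (scaled log2 difference 6.89, SE 0.43, adjusted p = 7.77e-10), and it reached 445, 441 and 296 RPKM in the Sox18 scales and 375 and 353 RPKM in the scales given retinoic acid. Neither row was therefore above every scale library of the series.

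The largest falls need a caution. ENSGALG00000022674 was listed at 0 in both feather libraries and stood at 771 and 829 RPKM in GFP scale (scaled adjusted p = 4.99e-13). ENSGALG00000022679 was likewise listed at 0 in feather, with 268 and 274 RPKM in GFP scale (scaled adjusted p = 6.48e-19). Both belong to a set of 25 non-keratin rows, found by searching these data, that were high in the GFP, retinoic acid, Spry2 and beta-catenin scale libraries. The set summed to between 0.4 and 0.5 RPKM in feather against 1589 and 1649 RPKM in GFP scale, and all 25 were called lower, which the search itself fixes. The same 2 rows stood between 0.0 and 1.7 RPKM in the Grem1, Sox2, Sox18 and Zic1-deltaC scale libraries, so a near absence was not particular to feather. Of the 67 rows off in feather, 15 were in this set, 1 was in a second set of 88 rows high only in GFP scale replicate 1, and 51 were in neither. Of the 46 rows that fell by more than 4 after scaling, 9 were in the first set, 1 in the second and 36 in neither. That second set summed to 1561 RPKM in GFP scale replicate 1 and 32.7 RPKM in replicate 2, and 15 of its rows were called lower after scaling. Both sets divide scale libraries from each other, so their falls are not given here as differences between feather and scale tissue, and the part of embryo or library in them was not tested.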

How the data were processed

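Per the labels' protocols, Trizol was used to extract RNA and the TruSeq V2 kit to make libraries. Reads were aligned with TopHat2 to galGal4 and quantified in Partek, per the submitters' processing notes; the sources used here do not give settings or counting rules. The authors deposited RPKM per row, with 1 decimal, in 1 table of all rows and 1 of keratins, whose values were identical. None of the 16110 Ensembl identifiers was in the reference table of symbols, and 16 of the 180 keratin names were.

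All tests were run on log2(RPKM + 1) with limma 3.58.1 in R 4.3.3, with an intensity trend, on 20 libraries in 9 groups (11 residual degrees of freedom). A row was kept if 2 or more libraries reached 1 RPKM (11863 rows, with 163 keratins), and p-values were adjusted over all of them by Benjamini-Hochberg. Fold changes on this scale understate those of low rows. Scaled values are RPKM divided by the library's sum over Ensembl rows and multiplied by the mean of that sum. Median-ratio scaling used 11521 rows.

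The comparison, the lists and the rule for named rows were chosen with earlier results of these data known. The rule took, in each keratin class and feather keratin chromosome, the 2 largest rises and 2 largest falls among called rows without overlap between tissues and a mean of at least 1 RPKM; the 3 most abundant keratins of each tissue; and the 2 largest scaled rises and falls among non-keratin rows. Other keratins, and the scale14 to scale18 group, were chosen after their values were seen. Of 18 gene lists beyond the keratin classes, 1 matched any row, by keratin names alone, so none is used. The code was tested on simulated data. Tables were handled in Python 3.11.15 with pandas 2.3.3 and drawn with matplotlib 3.10.9.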

Additional observations from a re-analysis of the deposited data

How the results depend on the processing

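The scaling decided most, though median-ratio scaling and quantile normalization bring the libraries to a common middle by design. Non-keratin rows called higher after dividing by the non-keratin sum numbered 2195, against 4085 under median-ratio scaling and 3693 under quantile normalization; those called lower numbered 7081, against 4357 and 4453, and the median over all tested non-keratin rows was -0.45, against -0.033 and -0.054. A filter at a mean of 5 RPKM, which tests fewer rows, left 756 higher and 5791 lower over all rows as deposited (1148 and 9328 with the filter used), 679 and 5746 among non-keratin rows, and 4339 lower after scaling. The deposited median of -0.94 was -0.66 with no filter, -1.06 with the filter at 5 and -1.26 with a pseudocount of 0.1, and the scaled median was -0.24 with no filter and -0.58 with that pseudocount. The cause of these moves, where not the number of rows, was not tested. Leaving out each of the 4 libraries gave 985 to 1236 rows higher and 8827 to 9414 lower as deposited, and 1938 to 2192 non-keratin rows higher and 6442 to 6991 lower after scaling. Keratin counts stayed between 75 and 90 higher and 44 and 52 lower as deposited. Of the 136 keratin calls as deposited, 19 were lost without at least 1 of the 4 libraries, and 11 of 134 after scaling. The call of ChrUn2_FK5 (4.6 and 0.4 RPKM in feather, listed at 0 in both GFP scale libraries, adjusted p = 0.00248) was lost without feather replicate 1 (0.0938) and with the 2 groups alone (0.119).

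Replicate numbers were shared by both groups, and deviations of same-numbered libraries correlated at -0.038 as deposited and -0.055 after scaling. With 2 libraries a group, this cannot tell whether same-numbered libraries share an embryo or a batch. The main fit treated them as unpaired. With a replicate block 1142 rows were higher and 9312 lower as deposited (1057 and 9263 of them non-keratin, 85 and 49 keratin). After scaling the block gave 2193 and 7080 non-keratin rows, and 93 and 41 keratins. Depth is unknown, so absence of a row listed at 0 cannot be bounded.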
